A study of Mus musculus with 8 samples.

Results

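The genes of the cytosolic ribosomal proteins were followed in branchial (pharyngeal) arch tissue, dissected with the looping heart, of mouse embryos that carry a Pygo2 mutation. The members are the gene symbols of the deposited count table that consist of Rpl or Rps, a number and at most 1 further letter, together with Rplp0, Rplp1, Rplp2 and Rpsa. They number 80 of 23420 symbols, 49 of the large and 31 of the small ribosomal subunit. Among them, 4 are paralogs of another member (Rpl3l, Rpl10l, Rpl39l and Rps27l), which leaves 46 large and 30 small subunit genes.

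The tissue came from 4 Pygo2 mutant embryos and 4 wild-type littermates at 10.5 days post coitum, with 1 library per embryo. Mutants and wild-type embryos share the stage, the hand dissection of arches with the heart, and the library kit, which depletes ribosomal RNA from total RNA. The nature of the Pygo2 mutation is not in the labels. Pygo2 is a nuclear factor that works with β-catenin in Wnt signalling. Libraries held 20823890 to 28175968 counts, and Pygo2 averaged 19.3 ± 1.99 CPM in mutants and 51.0 ± 5.20 CPM in wild-type embryos (SD, n = 4 each; CPM divides counts by the library total, scaled by TMM, and sets that total to 1000000).

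A ribosome is assembled in the nucleolus from ribosomal RNA and 1 copy of most ribosomal proteins, so cells make the messages of these genes in large and roughly matched amounts. In mammals nearly all of these messages begin with a run of pyrimidines, the 5′ terminal oligopyrimidine (TOP) tract, through which mTOR signalling and Larp1 set how well they are translated. Embryos are sensitive to the supply of single ribosomal proteins: mice with too little Rpl38 or Rpl24 have skeletal and tail defects, and RPS19, RPS24 and RPS26 are mutated in human Diamond-Blackfan anaemia.

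A C and T run was found in 44 of 56 core genes with a promoter, and the choice by name did not use it. The start sites below are shown for this run. Each is 40 bases of the sense strand in RefSeq (GRCm38.p6), 30 before the annotated start and 10 from it on, with the longest C and T run (the first, where several are equally long) in capitals.
Rpl38, chr11:114668550-114668589, plus strand: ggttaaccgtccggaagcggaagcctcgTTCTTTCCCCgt
Rps6, chr4:86857358-86857397, minus strand: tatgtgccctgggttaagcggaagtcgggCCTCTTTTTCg
Rpl27a, chr7:109519165-109519204, plus strand: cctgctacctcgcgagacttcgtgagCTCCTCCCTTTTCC
Rpl14, chr9:120571487-120571526, plus strand: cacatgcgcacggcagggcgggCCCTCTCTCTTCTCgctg
Rplp2, chr7:141447621-141447660, plus strand: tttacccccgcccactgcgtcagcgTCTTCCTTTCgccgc
Rps27l, chr9:66946056-66946095, plus strand: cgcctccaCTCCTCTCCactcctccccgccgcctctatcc
Rpl3l, chr17:24727796-24727835, plus strand: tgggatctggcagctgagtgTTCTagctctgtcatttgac
The 5 core genes printed first carry runs of 10 to 14 bases that begin 1 to 8 bases before the annotated start. Core genes without such a run are not printed. The paralog Rps27l has 2 runs of 9 bases, the one in capitals beginning 22 bases before the start and the other nearer to it. Rpl3l has no run longer than 4 in the printed bases, while the paralog Rpl39l, not printed, has 1 of 9.

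A promoter was available for 56 core genes. A run of 8 or more C or T on the sense strand within 40 bases of the start was found in 44 of these 56 (78.6%), against 32.6% of all 27025 genes with a promoter in the table. From 250 bases before the start to 50 after it, CCGGAAG, a sequence bound by ETS factors such as Gabpa, stood on either strand in 23 of 56 core genes (41.1%) and in 9.93% of all genes. GGGCGG, a sequence bound by Sp1, stood in 34 (60.7%, against 38.2%), AAGATGGC, a sequence bound by Yy1, in 5 (8.93%, against 3.19%), and TATAA on the sense strand in 15 (26.8%, against 20.0%). CTTTGA, the core of the TCF and LEF sequence through which β-catenin reaches DNA, stood on either strand in 2 (3.57%, against 18.2%). Of the 4 paralogs, 3 also had such a C and T run, 2 had CCGGAAG, 2 GGGCGG and 1 CTTTGA. Motifs were searched separately and may overlap one another, and a match is only a match of letters.

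The core genes were among the most abundant messages of the tissue. Of the 76 core genes, 72 averaged at least 10 CPM over the 8 libraries, from 224 CPM (Rps16) to 2212 CPM (Rpsa, the laminin-receptor-related small subunit protein). Per length of message the large subunit genes ran from 438 to 3134 CPM per kb with a median of 896, and the small subunit genes from 192 to 2006 with a median of 1065. Of the 72 genes, 70 stood among the 200 highest of all tested genes per kb. The 2 highest per kb, named after their values were seen, were Rpl41, which encodes the smallest ribosomal protein (3134), and Rps12 (2006). Rps20 came lowest per kb, on a message that is 3706 bases long in GENCODE M21. Before division by length it averaged 712 CPM, near the median of 753 CPM over the 72 genes.

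**Figure D1:**
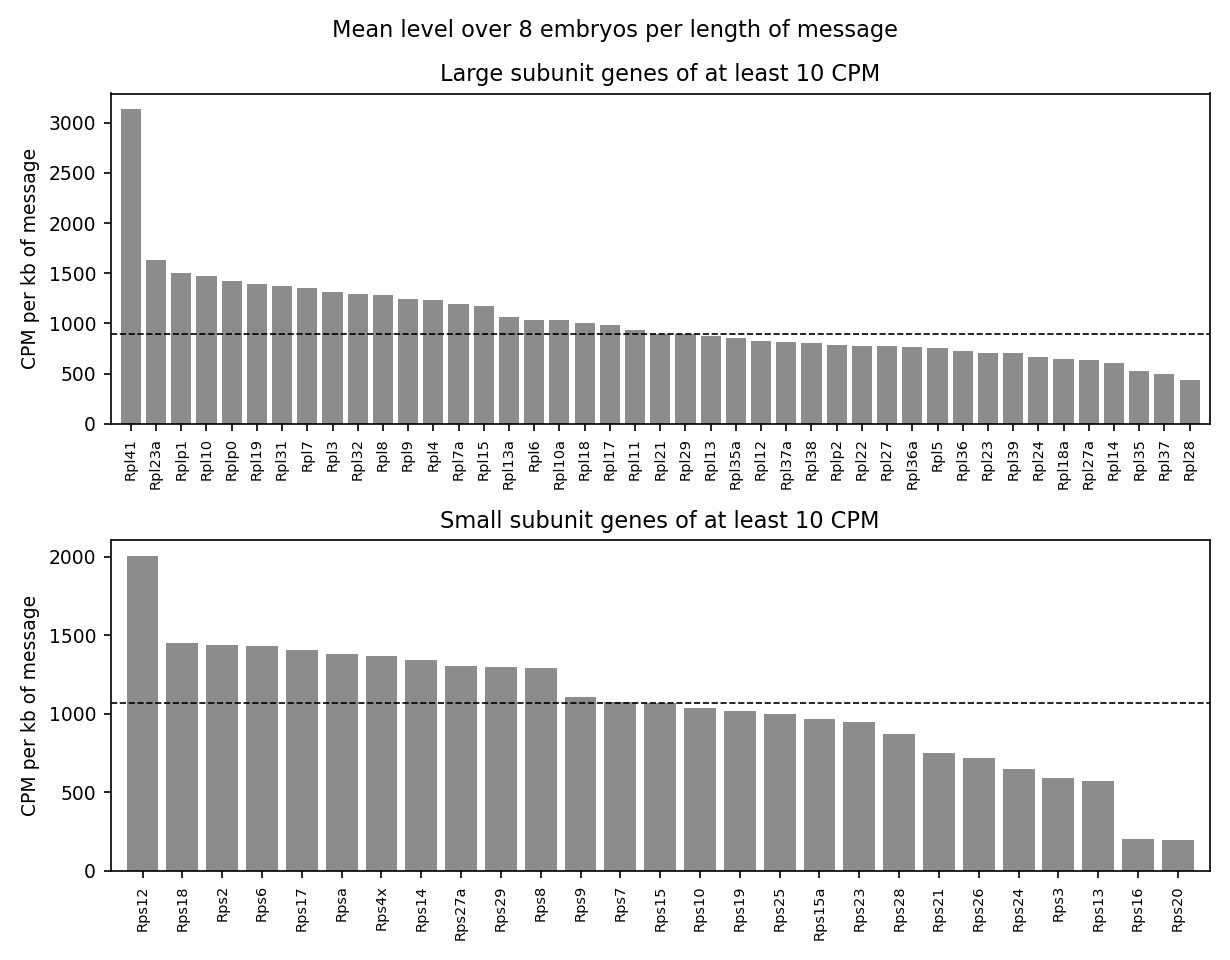
Mean level over the 8 embryos of 70 of the 72 core genes of at least 10 CPM, in CPM per kb of message (vertical axes, from 0), for the large subunit (top) and the small subunit (bottom); dashed lines are the medians over all 72, 896 and 1065. Rpl41 at 3134 and Rps12 at 2006 stand highest, and Rps16 and Rps20 lowest in the small subunit.

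The stalk proteins, which recruit translation factors to the large subunit, were not at 1 level. Rplp0, the base of the stalk, averaged 1422 CPM per kb, Rplp1 1503 and Rplp2 786. The acidic proteins encoded by Rplp1 and Rplp2 form dimers in the ribosome, and their messages differed in level per kb. The chromosomes give no common neighbourhood: members lie on 19 chromosomes, with 14 on chromosome 7 and 4 on the X. Small nucleolar RNA genes, which guide the modification of ribosomal RNA, lie inside 29 members, 56 in all.

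A few members were nearly empty in the table. Rpl26 held 0 counts in all 8 libraries, which allows up to 0.0150 CPM over the libraries together (3 counts). Rpl30 held 28 counts in all, at most 6 in a library, Rpl34 165 and Rps27 386. These are core proteins of every ribosome, and Rpl26, Rpl30, Rpl34 and Rps27 are the only core genes under 10 CPM.

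Copies of the messages elsewhere in the genome were looked at for these genes. Of the 50-base words in the Rps27 message, 98.7% also stood in transcripts of other genes, of the Rpl26 words 71.3%, of the Rpl34 words 50.6% and of the Rpl30 words 47.8%. Over the 72 core genes of at least 10 CPM this share ran from 0 to 92.4%, with a median of 55.5%. Words of Rpl26, Rpl30, Rpl34 and Rps27 were shared with 12, 16, 9 and 9 other genes, of which 1, 1, 1 and 0 are in the table. Those present held 0 counts. Most copies are not in the table, so these counts cannot show whether reads fell on them. Over the 72 genes the share of words elsewhere and the CPM per kb had a Spearman rho of 0.41, a description across genes of the same libraries. The 72 leave out Rpl26, Rpl30, Rpl34 and Rps27, so this value cannot bear on why those are nearly empty. The part of the authors' counting in the empty entries was not tested, and levels of all members with copies are uncertain to that extent. The 5 symbols of ribosomal protein pseudogenes in the table held 4776 counts together.

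The paralogs were low or absent apart from Rps27l. Rpl3l, which replaces Rpl3 in adult striated muscle, had 0, 2, 1 and 1 counts in mutants 1 to 4 and 0, 4, 2 and 3 in wild-type embryos 1 to 4, although the dissection held the heart. Its parent Rpl3 averaged 1773 CPM, and no word of the Rpl3l message stood in another gene. Rpl39l, known from the testis, had 1 to 6 counts in mutants and 1 to 10 in wild-type embryos, against 433 CPM for its parent Rpl39. Rpl10l, a retrogene of Rpl10 used in male germ cells, had 0 counts in all 8 libraries.

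Rps27l, a p53 target that can stand in for Rps27, was the exception. It had 78.8, 90.4, 117 and 105 CPM in mutants 1 to 4, and 112, 104, 153 and 109 CPM in wild-type embryos 1 to 4. The 2 lowest values were mutants and the highest was wild-type embryo 3, and the groups overlapped. Per kb it reached 218 CPM, against 5.69 for Rps27, whose message has almost no unique words. The part of shared words in this difference was not tested.

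The comparison of mutants with wild-type embryos used edgeR's quasi-likelihood test over all 14861 tested genes. Of the 80 members, 75 entered the test (44 large, 31 small). The other 5 (Rpl10l, Rpl26, Rpl30, Rpl39l and Rpl3l) had too few counts. No member was called at an adjusted p under 0.05, where 0.00673% of all tested genes were called (Pygo2 itself, lower). The smallest adjusted p of a member was 0.999975 with edgeR, and DESeq2 also called 0 members. At an unadjusted p under 0.05, 2 members were lower (0.814% of all tested genes were, and 1.3% were in either direction) and 0 higher by edgeR, and 8 were lower by DESeq2 (0.962% of all tested genes were).

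All 75 tested members nevertheless had a fold change below 0, where 50% of all tested genes did. The log2 fold changes (mutant over wild-type) ran from -0.51 (Rps27) to -0.0046 (Rpl4), with a median of -0.18, against 0.00 over all tested genes. The low end is a nearly empty entry, as Rps27 held only 32 to 65 counts per library. The large subunit genes had a median of -0.17 and the small subunit genes of -0.20. A log2 fold change below -0.1 was found for 69 of the 75, where 23.5% of all tested genes had one. The median standard error of a member was 0.15, and the interval of Rpl14 leaves out 0 (-0.57 to -0.04) while those of most members include it. Members share their libraries and vary together, so the 75 directions are not 75 observations.

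**Figure D2:**
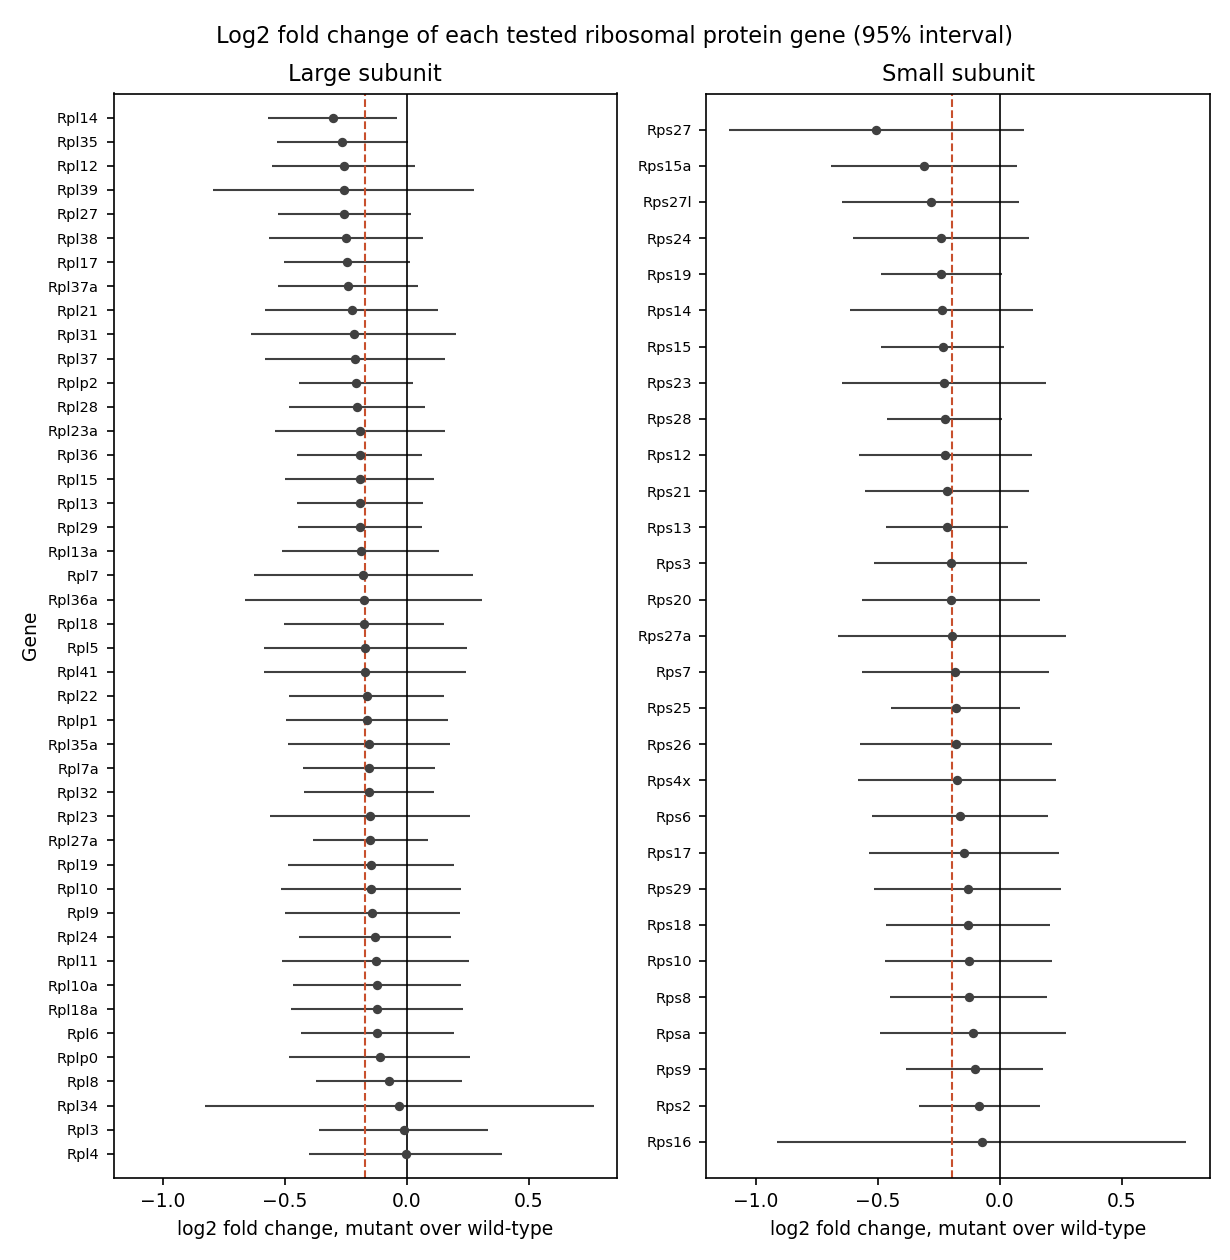
Log2 fold change, mutant over wild-type (horizontal axes), of tested large (left) and small (right) subunit genes, 73 of 75, with 95% intervals from the edgeR fit; dashed lines are the medians over all 75, -0.17 and -0.20, and solid lines stand at 0. All plotted points lie left of 0, and of the plotted intervals that of Rpl14 leaves it out.

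In sums, the members made up 4.57, 5.59, 6.53 and 5.89% of the counts in mutants 1 to 4, and 5.86, 5.60, 6.76 and 6.42% in wild-type embryos 1 to 4. Mutant 1 was lowest and wild-type embryo 3 highest, the groups overlapped, and each mutant lay below the wild-type embryo of the same number. The totals also hold Rn45s, a ribosomal RNA precursor, at 1.29, 0.60, 0.49 and 0.57% in mutants 1 to 4. In wild-type embryos 1 to 4 it took 0.64, 0.52, 0.62 and 4.83%. The part of Rn45s in these shares was not tested. Summed CPM averaged 55832 ± 9024 in mutants and 62552 ± 6744 in wild-type embryos (SD, n = 4 each), a ratio of 0.893. The difference between the means is smaller than either SD. In bulk tissue fewer cells of a type and less RNA per cell cannot be told apart.

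The subunits moved together between embryos. The large subunit genes summed to 33833 ± 5548 CPM in mutants and 37707 ± 3952 CPM in wild-type embryos, a ratio of 0.897. The small subunit genes summed to 22000 ± 3477 CPM in mutants and 24845 ± 2795 CPM in wild-type embryos, a ratio of 0.885. The small over large ratio was 0.651 ± 0.0046 in mutants and 0.658 ± 0.0067 in wild-type embryos (SD, n = 4 each); the sums of all members ran from 44384 to 68804 CPM over the same embryos.

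**Figure D3:**
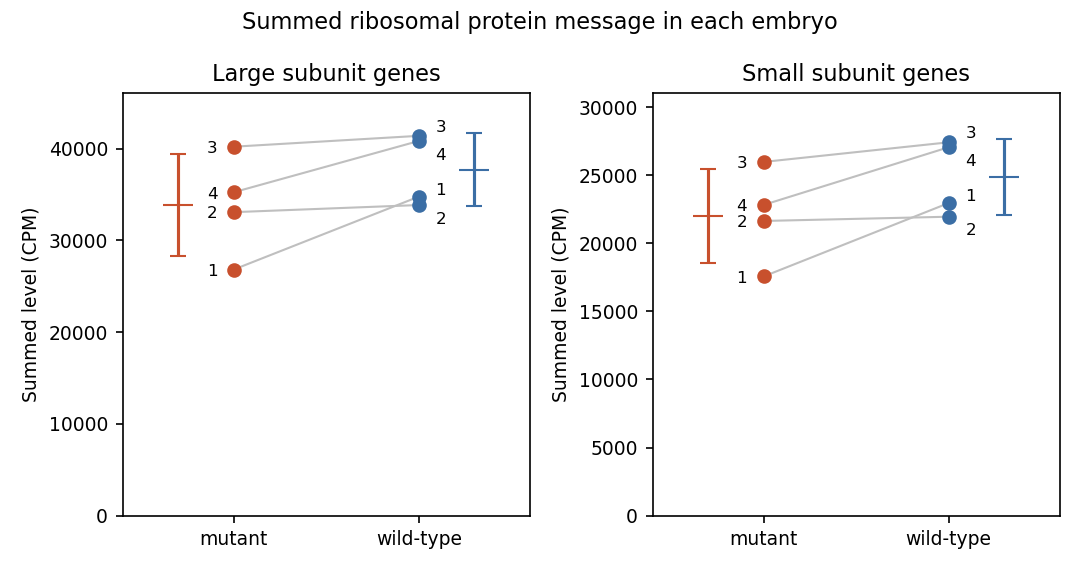
Summed level in CPM (vertical axes, from 0) of large (left) and small (right) subunit genes in each embryo; numbers and grey lines give the replicate number of the labels, and bars are the mean and SD of 4. Each mutant lies below the wild-type embryo of the same number, and mutant 1 lies lowest in both panels.

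Groups overlapped for nearly every member. All mutants lay below all wild-type embryos for 1 member (0.559% of all tested genes) and above for 0 members (0.484% of all tested genes).

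Rpl14, a large subunit protein, had the smallest p of its subunit. It had 627, 503, 495 and 576 CPM in mutants 1 to 4, and 699, 762, 642 and 617 CPM in wild-type embryos 1 to 4. Mutant 1 lay above wild-type embryo 4, so the groups overlapped. The log2 fold change was -0.30 (SE 0.12, edgeR unadjusted p = 0.0283, adjusted p = 0.999975).

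Next by p came Rpl35 in the large subunit, a protein at the exit of the peptide tunnel (log2 -0.27, unadjusted p = 0.0523 by edgeR), and Rps19 in the small subunit (log2 -0.24, unadjusted p = 0.0575 by edgeR). Rps19 had 520, 558, 655 and 636 CPM in mutants 1 to 4, and 670, 646, 753 and 727 CPM in wild-type embryos 1 to 4. Mutant 3 lay above wild-type embryo 2, and Rps19 was lower in 4 of 4 numbered pairs. Such a pattern was found in 24 of the 75 members, where 5.88% of all tested genes showed it. Members vary together, so these are not 24 observations, and the labels do not say what a number marks.

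Over all genes the deviations of same-numbered libraries correlated at 0.56, 0.18, 0.68 and 0.19 for numbers 1 to 4. Some pairs of different number correlated more than those of numbers 2 and 4. The replicate number was also fitted as a block. With the block 22 members had an unadjusted p under 0.05 and all of these were lower, where 2.52% of all tested genes were lower at that limit. Members vary together, so these are not 22 observations, and the pairing was inferred from these same data. No member was called (smallest adjusted p = 0.968 by edgeR with the block). The block left 73 of the 75 members below 0, with Rpl34 and Rps16 above it.

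The genes with known roles in development lay within the same narrow range. Rpl38, which in mice is needed for the translation of a set of Hox messages and for the axial skeleton, had 195, 256, 310 and 259 CPM in mutants 1 to 4, and 280, 292, 337 and 305 CPM in wild-type embryos 1 to 4 (log2 -0.25, SE 0.14). Mutant 3 lay above wild-type embryos 1, 2 and 4, so the groups overlapped. Rpl24, mutated in Belly spot and tail mice, had log2 -0.13 (SE 0.14), Rps20, mutated in a dark skin mouse, -0.20 (SE 0.16), and Rpl27a, mutated in the mouse Sooty foot ataxia, -0.15 (SE 0.10).

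Rpl5 and Rpl11, which bind Mdm2 when ribosome assembly is disturbed, had log2 fold changes of -0.17 (SE 0.18) and -0.13 (SE 0.17). Rpl22, needed for T cell development in mice, had -0.16 (SE 0.14), and Rps27a, made as a fusion with ubiquitin, -0.20 (SE 0.21). Rps14, whose loss underlies the anaemia of human 5q deletion, had -0.24 (SE 0.17), Rps24 -0.24 (SE 0.16) and Rps26 -0.18 (SE 0.17). Rps6, the target of S6 kinase, had 899, 1149, 1449 and 1242 CPM in mutants 1 to 4, and 1181, 1200, 1534 and 1394 CPM in wild-type embryos 1 to 4 (log2 -0.16, SE 0.16). In each of these genes mutant 1 was the lowest of the 8 embryos and the groups overlapped.

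Of the most abundant members, Rpl4 and Rpl3 had fold changes close to 0. Rplp0 averaged 1857 ± 352 CPM in mutants and 2006 ± 282 CPM in wild-type embryos (log2 -0.11), and Rpsa 2128 ± 396 CPM in mutants and 2296 ± 359 CPM in wild-type embryos (log2 -0.11; SD, n = 4 each). Rpl4 averaged 1901 ± 406 CPM in mutants and 1907 ± 276 CPM in wild-type embryos (log2 -0.0046, interval -0.40 to 0.39), and Rpl3, at the peptidyl transferase centre, had a log2 fold change of -0.01 (interval -0.36 to 0.33). Both large subunit genes lay above 0 when libraries were scaled by their totals only (log2 0.02 for Rpl3 and 0.03 for Rpl4), where the median of all genes stood at 0.04.

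Across the 8 libraries the members followed 1 common course. Each member's log2 CPM was set against its own mean over the libraries, and the median of these deviations over the core genes was -0.41, -0.09, 0.17 and -0.03 in mutants 1 to 4, and -0.02, -0.07, 0.25 and 0.22 in wild-type embryos 1 to 4. Mutant 1 stood apart below the others, while mutant 3 lay near wild-type embryos 3 and 4. In mutant 1 only 3 of the 74 tested core genes lay above their mean, and in wild-type embryo 4 73 did.

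Without mutant 1 the median log2 fold change of the members was -0.08 and 70 of 75 were below 0, with Rpl3, Rpl4, Rpl8, Rps16 and Rpsa above it. Without both libraries numbered 1 it was -0.12, with 72 below 0. Without mutant 3 it was -0.27. Without wild-type embryo 3 it was -0.13, and without wild-type embryo 4 -0.14.

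The median correlation between pairs of core members over the 8 libraries was 0.86. Set against the median of the others, 60 of 74 core members (81.1%) had r of at least 0.8, which 10.2% of the other 14786 tested genes had with the core median. All values come from the same libraries, share depth and scaling, and are a description. The closest followers were spread over both subunits, 36 large and 24 small.

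**Figure D4:**
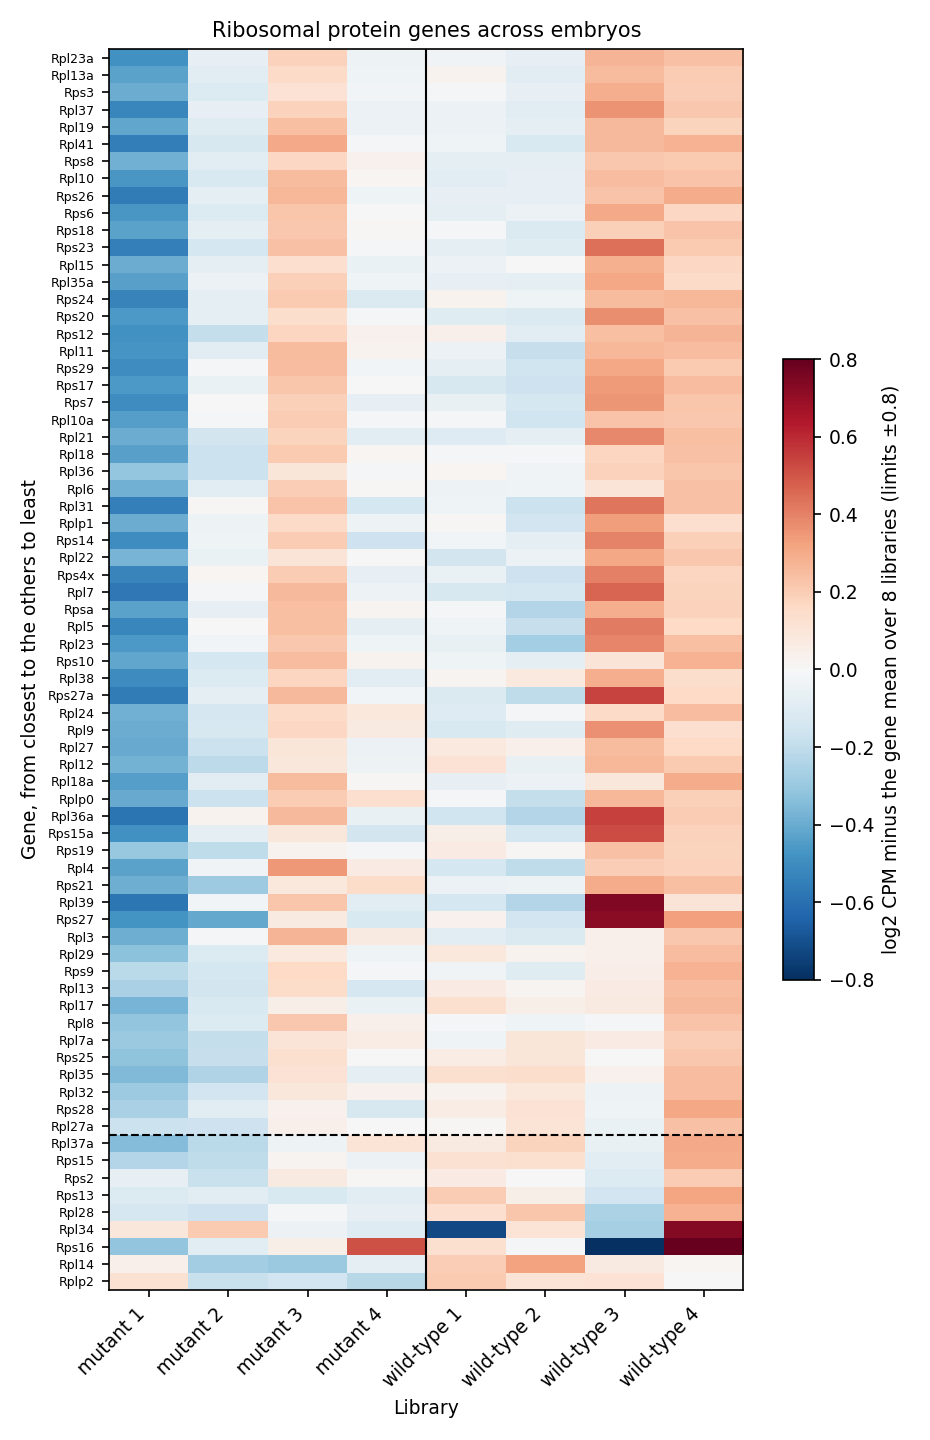
Log2 CPM minus the gene's mean over 8 libraries (colour, limited to ±0.8) of 72 of the 74 tested core genes, in rows from closest to the others at the top to least at the bottom, with mutants in the 4 left columns and wild-type embryos in the 4 right. Most rows share the course of mutant 1 low and wild-type embryos 3 and 4 high; the rows under the dashed line have r under 0.6.

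A set of 10 members had r under 0.6, among them Rplp2, Rpl14, Rpl28, Rpl34 and Rpl37a of the large and Rps2, Rps13, Rps15 and Rps16 of the small subunit. They were picked by this value, and Rpl28, Rpl37a, Rps13 and Rps15 are named for it alone. Their median deviation was -0.09, -0.18, -0.04 and -0.07 in mutants 1 to 4, and 0.12, 0.12, -0.10 and 0.29 in wild-type embryos 1 to 4. In this set mutant 1 did not stand apart and wild-type embryo 3 was low, while the median log2 fold change of -0.21 was close to that of the 60 followers, -0.18. Rplp2 had 358, 291, 296 and 282 CPM in mutants 1 to 4, and 380, 354, 357 and 329 CPM in wild-type embryos 1 to 4. Mutant 1 was thus the highest mutant for Rplp2, whereas for its stalk partner Rplp1 it was the lowest embryo at 563 CPM.

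Rps16 varied most among the core genes of at least 10 CPM. It had 166, 196, 215 and 295 CPM in mutants 1 to 4, and 226, 206, 90.3 and 395 CPM in wild-type embryos 1 to 4. The lowest and the highest values were both in wild-type embryos, from 1846 and 10530 counts. The coefficient of variation over the 8 libraries was 40.3%, against 15.0% at the median of the core genes and 8.35% for Rps2, the steadiest. Among large subunit genes of at least 10 CPM Rpl39 (28.8%) and Rpl36a (23.8%) varied most, both on the X chromosome. The other members on the X varied less, Rpl10 by 16.2% and Rps4x by 18.7%. Rpl39 and Rpl36a were highest in wild-type embryo 3 and lowest in mutant 1, as was the median of the core genes.

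Message length moved with the same course. Other protein-coding genes with messages under 1000 bases had a median log2 fold change of -0.09 and 606 of them (73.1%) were below 0, against 0.00 and 49.3% of all 13261 other protein-coding genes. Their median deviation was -0.15, -0.03, 0.10 and -0.09 in mutants 1 to 4, and 0.01, 0.00, 0.07 and 0.11 in wild-type embryos 1 to 4. The 55 core genes of the same length and at least 10 CPM had a median of -0.18. Genes of 4000 bases and over had the opposite sign, 0.03. The part of message length in the difference was not tested.

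**Figure D5:**
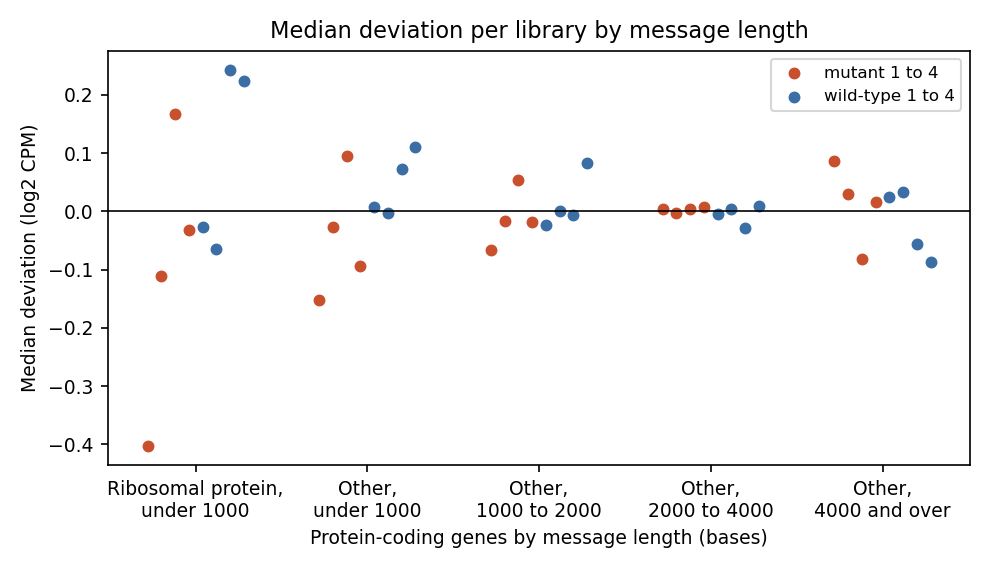
Median deviation in log2 CPM (vertical axis) in each library, mutants 1 to 4 and then wild-type embryos 1 to 4 from left to right within a class, for the 55 ribosomal protein genes under 1000 bases and for other protein-coding genes by message length. The short other genes take a course like that of the ribosomal protein genes at a smaller size, from -0.15 in mutant 1 to 0.11 in wild-type embryo 4.

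Base composition tilted some libraries. Other protein-coding genes under 45% GC had a median deviation of -0.16 in mutant 1 and 0.16 in wild-type embryo 3, and those of 55% and over 0.19 in mutant 1 and -0.15 in wild-type embryo 3. Core genes under 48% GC lay at -0.47 and those of 54% and over at -0.40 in mutant 1. In wild-type embryo 3 these values were 0.38 and 0.18. The part of base composition in the difference was not tested.

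Ribosomal proteins whose symbols fall outside the choice by name had the same direction. All 8 tested, among them Fau, Rps3a1, Gnb2l1 and Rpl22l1, were below 0, with a median of -0.16 and none called. Fau, a fusion of a ubiquitin-like protein with a small subunit protein, had 347, 415, 502 and 446 CPM in mutants 1 to 4, and 434, 442, 492 and 533 CPM in wild-type embryos 1 to 4. Gnb2l1 encodes Rack1, a scaffold on the small subunit, and had log2 -0.11 (SE 0.15).

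A list of translation factors and other genes with TOP messages had a median closer to 0. Of 18 tested, 13 were below and 5 above 0 with a median of -0.05, and none was called. Tpt1, a TOP message often used as a marker of the class, had 867, 828, 854 and 842 CPM in mutants 1 to 4, and 908, 1014, 938 and 997 CPM in wild-type embryos 1 to 4. All mutants lay below all wild-type embryos for Tpt1 (log2 -0.19, edgeR unadjusted p = 0.0656, the smallest of the 18). Tpt1 was the only 1 of the 18 without overlap, where 0.559% of all tested genes were lower without overlap. Its r to the core median over the libraries was 0.35. Eef1a1, the elongation factor that delivers tRNA, had log2 -0.12 (SE 0.13), and Eef2, which drives translocation, 0.04 (SE 0.12).

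The genes that build ribosomes did not share the direction of the fold change. Of 42 ribosome biogenesis genes, 22 were below and 20 above 0 with a median of -0.01, and none was called. Their median deviation was -0.22, -0.17, 0.17 and 0.19 in mutants 1 to 4, and -0.10, -0.11, 0.06 and 0.11 in wild-type embryos 1 to 4. Mutant 1 was thus lowest here as well, while mutant 4 was highest. Ncl (nucleolin) had log2 0.16 (SE 0.14) and Fbl (fibrillarin) -0.05 (SE 0.15). Of 18 regulators of ribosomal protein genes and their translation, among them Myc, Mtor and Larp1, 6 were below and 12 above 0 with a median of 0.03, and none was called.

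Markers of other cells varied between embryos as well. All 8 tested neural markers were above 0 in mutants, with summed levels of 29.4 to 649 CPM in mutants and 53.9 to 556 CPM in wild-type embryos. The lowest sum was that of mutant 1, which also had the lowest ribosomal protein level. The other embryos did not all keep this order. Wild-type embryo 4 had 162 CPM of neural markers and 67883 CPM summed over the members. Mutant 4 had 551 CPM of neural markers and 58058 CPM over the members. Sox1 and Olig2 were at 0 counts in mutant 1 and in wild-type embryos 1 and 2. All 9 tested erythroid markers were below 0, with sums of 2880 to 9486 CPM in mutants and 4859 to 23918 CPM in wild-type embryos. The highest sum was that of wild-type embryo 1 alone. Wild-type embryos 2 to 4, at 4859, 6838 and 7644 CPM, lay within the range of the mutants. Hba-a1 was at 0 in all 8 libraries. All 12 cardiomyocyte markers were above 0, with sums of 11923 to 25801 CPM in mutants and 8387 to 19160 CPM in wild-type embryos, the highest in mutant 1. The 7 macrophage markers were above 0 (25.3 to 45.8 CPM in mutants, 19.9 to 27.0 CPM in wild-type embryos) and the 7 arch mesenchyme markers below (271 to 342 CPM in mutants, 285 to 515 CPM in wild-type embryos). None was called, and their part in the ribosomal protein difference was not tested.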

How the data were processed

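RNA-seq was done on 8 libraries from 300 ng of total RNA each, per the labels' protocols with a stranded TruSeq kit and RiboZero. The mm10 build, TopHat2 2.0.11, HTSeq 0.6.1 and edgeR 3.14 are named in the submitters' processing notes. For the counting, neither annotation nor strand setting is given in the sources used here. The authors deposited raw counts per gene symbol. From these counts, genes passing filterByExpr were tested with edgeR 4.0.16 (R 4.3.3; TMM scaling, glmQLFit and glmQLFTest, genotype as the only term, two-sided) and p-values adjusted by Benjamini-Hochberg over all tested genes, with DESeq2 1.42.0 beside it. Log2 CPM used a prior count of 2. The fit was tested on simulated data.

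Both groups carry the numbers 1 to 4 in the labels. Same-numbered libraries deviated from their group means with correlations of 0.56, 0.18, 0.68 and 0.19. All are above 0.1, which was taken as pairing inferred from the data. It is not specific to the number: mutant 4 with wild-type 3 (0.63), mutant 2 with wild-type 1 (0.48) and mutant 1 with wild-type 2 (0.43) also correlated, pairs 2 and 4 less than these. Embryos are separate biological samples. Positions and message lengths (the shortest complete principal transcript) come from GENCODE M21, which matched all 80 members, and start sites from RefSeq. Intervals are 95%, and the limit for 0 counts covers counting error only.

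Genes were named by subunit paralogy with their parents, the stalk genes and Rpsa, known mutant roles, and the extremes of level, p and variation in each subunit. Some genes are not reported here and are left out of the figures, though they count in the totals. The members, lists and named genes were chosen with earlier results of these data known. Alternatives were other scalings, filters and tests, the replicate block, and leaving out each library.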

Additional observations from a re-analysis of the deposited data

Results flagged for a closer look

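Of 82 groups of 4 embryos looked at, 2 held an embryo far from the other 3, and chance flags about 1 in 20 such groups. Rps27l in wild-type embryo 3 stood at 153 CPM, and the other wild-type embryos at 104 to 112 CPM. The ratio of small to large subunit sums was 0.649 in wild-type embryo 2, and 0.660 to 0.663 in the other wild-type embryos.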

How the results depend on the processing

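No ribosomal protein gene was called under any of the 16 alternatives. Of 511 values of single named genes under them, 491 kept their direction and side of the threshold and 20 turned positive. With library totals only, the log2 fold changes were 0.0248 (Rpl3), 0.0193 (Rpl34) and 0.0333 (Rpl4). With the replicate block they were 0.0417 (Rpl34) and 0.0618 (Rps16), and the block changed no call. Without both libraries numbered 1, a setting chosen after seeing the data, they were 0.0720 (Rpl3), 0.0749 (Rpl4) and 0.0366 (Rps16), and calls among all genes were 0. Leaving out 1 library, calls among all genes were 0 to 1, and the ranges were -0.11 to 0.10 (Rpl3), -0.13 to 0.12 (Rpl4), -0.23 to 0.33 (Rpl34), -0.34 to 0.32 (Rps16) and -0.22 to 0.0063 (Rpsa), with 70 to 75 members below 0. The median ran from -0.26 to -0.07 (large) and -0.28 to -0.09 (small), and the ratio of summed CPM from 83.8% to 95.8%. The cause was not tested. Counts of 10 to 65 per library limit Rpl34 and Rps27.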
